A study of Homo sapiens with 6 samples.

Results

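Of the 3857 GABPA peaks listed in the ROSA26 knockout library, 886 were overlapped by no peak of the parental library and by none of the B1 knockout library, and for 528 of these 886 a protein-coding gene began or ended no more than 1 kb from the summit. These 528 peaks were chosen by the measured peak lists themselves, so their absence from the other lists, and their position near a gene end, are given as descriptions. Peaks were taken as overlapping from 1 bp on, the summit is the base of highest signal, and a gene end is either end of a RefSeq gene span on chromosomes 1 to 22 and X. The 528 peaks make up 18.0% of the 2941 ROSA26 peaks near a gene end. They lay near ends of 650 genes, which are 3.25% of the 19974 protein-coding genes on these chromosomes.

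GABP is a transcription factor in which GABPA, a protein of the ETS family, contacts DNA at sites built around the letters GGAA, and a B subunit carries the activation domain. It is best known for binding close to the starts of widely expressed genes, among them many genes of mitochondria and protein synthesis. The cells were A-375, a long-established line from a human melanoma, and DNA bound by GABPA was measured by ChIP-seq. The parental cells are unedited. The control line A375_ROSA26_KO_No1 carries a knockout at ROSA26, and A375_B1X2KO_TERT_rescue lacks exon 2 of the GABP subunit B1 and then received a TERT knock-in (TERT is telomerase's catalytic protein). Per the labels' protocols, edited cells were grown on from sorted cells as clones. The ROSA26 label gives a clone number and the B1 knockout label gives none. That the B1 knockout library stands for 1 clone is therefore inferred from the protocols. Each condition had 1 GABPA library and 1 input library, and none of the comparisons below has a replicate check. A clone, its edit and its library cannot be told apart. The lists held 3024 parental, 3857 ROSA26 and 1660 B1 knockout peaks. A place without a listed peak lies below the limit of the peak caller and is not shown to be free of GABPA.

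Sequences are shown first for the 6 strongest of the 528 peaks whose summit lay inside a RefSeq promoter window that itself holds the ETS motif. A window runs from 250 bases before to 50 bases after a gene start. FAM168B, whose peak is stronger than some of them, has the motif in a window that its summit does not lie in and is not shown. The letters are those of GRCh38.p14, read 5′ to 3′ on the strand of the gene, and only stretches before the start and outside other genes are given beyond 30 bases. Capitals mark the motif, CCGGAAGT, or ACTTCCGG where it lies on the other strand. The marked letters need not lie under the summit, and only the summit of PRKACB lies within the stretch shown. Summits were 182 bp before the start at GTF2H2C, 197 bp at MCRIP1 and 109 bp at CSGALNACT2, with the marked letters nearer to the start. At PNISR the summit was 56 bp before the start and at ZNF593 48 bp after it. GTF2H2C (chr5:69560041-69560190, plus strand), PRKACB (chr1:84077882-84078031, plus strand) and CSGALNACT2 (chr10:43138394-43138444, plus strand) are shown at length, and MCRIP1 (chr17:81833273-81833302, minus strand), PNISR (chr6:99425317-99425346, minus strand) and ZNF593 (chr1:26169904-26169933, plus strand) as 30 bases about the motif.
GTF2H2C: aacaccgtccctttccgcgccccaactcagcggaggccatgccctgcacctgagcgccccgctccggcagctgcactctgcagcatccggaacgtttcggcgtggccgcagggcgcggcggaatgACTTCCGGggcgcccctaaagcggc
MCRIP1: gcggtggcgtcACTTCCGGcggggcctccc
PNISR: tattattctttACTTCCGGgtgagacaaat
ZNF593: agctgatcggcCCGGAAGTgctcacacgtg
PRKACB: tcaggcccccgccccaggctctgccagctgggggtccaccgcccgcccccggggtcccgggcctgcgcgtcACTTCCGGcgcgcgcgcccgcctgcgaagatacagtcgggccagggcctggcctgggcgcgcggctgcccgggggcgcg
CSGALNACT2: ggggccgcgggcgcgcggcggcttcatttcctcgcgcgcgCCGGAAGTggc

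The next 2 are the strongest without those letters in a window that holds the summit. KRABD4 (chrX:46447147-46447296, plus strand) has the shorter ETS core CGGAAG, in capitals, and HIBCH (chr2:190319827-190319976, minus strand) has neither. TFAM (chr10:58385260-58385409, plus strand), the transcription factor of mitochondrial DNA and a textbook GABP target, was added after its values were seen. It holds neither string in its window, which says only that these letters are not there.
HIBCH: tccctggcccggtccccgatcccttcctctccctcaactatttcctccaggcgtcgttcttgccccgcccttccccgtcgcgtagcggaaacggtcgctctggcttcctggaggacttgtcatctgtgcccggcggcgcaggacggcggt
KRABD4: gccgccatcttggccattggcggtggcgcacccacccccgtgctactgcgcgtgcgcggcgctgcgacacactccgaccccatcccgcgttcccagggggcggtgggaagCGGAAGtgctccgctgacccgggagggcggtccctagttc
TFAM: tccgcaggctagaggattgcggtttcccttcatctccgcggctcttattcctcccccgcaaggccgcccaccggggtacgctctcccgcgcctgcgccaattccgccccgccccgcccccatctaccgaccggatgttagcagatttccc

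The peaks were weak within their own list. Their fold enrichment, which is the authors' value and compares the summit with its local background, ran from 1.94 to 5.91 with a median of 3.23. All 528 lay below the median of the whole ROSA26 list, 6.02. The 2410 ROSA26 peaks near a gene end that had a parental peak ran from 2.15 to 26.4 with a median of 8.05. The 358 ROSA26-only peaks away from gene ends ran from 1.19 to 6.57 with a median of 2.87. The median width was 438 bp for the 528 peaks, 420 bp for those away from gene ends and 702 bp for those with a parental peak.

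**Figure D1:**
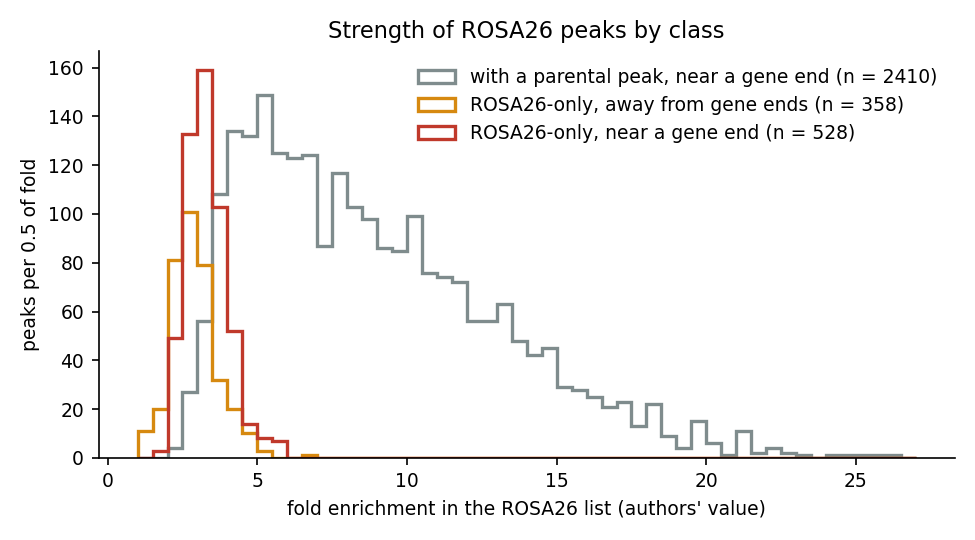
Fold enrichment in the ROSA26 list (x axis) against the number of peaks per 0.5 of fold (y axis) for 3 classes of ROSA26 peaks. The 528 ROSA26-only peaks near a gene end lie between 1.94 and 5.91, at the low end of the range of the 2410 peaks with a parental peak.

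The share of ROSA26 peaks near a gene end that belonged to the group fell with their fold. Below a fold of 3, 185 of 216 such peaks did (85.6%, 95% interval 80.3 to 90.0). From 3 to 4 it was 262 of 427 (61.4%, 56.6 to 66.0), from 4 to 5 it was 66 of 334 (19.8%, 15.6 to 24.4) and from 5 to 6 it was 15 of 289 (5.19%, 2.93 to 8.42). None of the 1675 peaks with a fold of 6 or more did, where the interval reaches up to 0.220%. Peaks with folds in this range were listed in the other libraries too, where the fold is relative to that library's own background and is not on a common scale. In the parental list 1399 of 3024 peaks had a fold of 5.91 or less, and 238 had one no higher than the median of the 528 (7.87%, 6.94 to 8.89). In the B1 knockout list 82 of 1660 did (4.94%, 3.95 to 6.09). Intervals here and below are exact (Clopper-Pearson, 95%), taken over peaks or genes, and cover counting error only, since reads without molecular identifiers and neighbouring peaks are not independent.

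The reads behind a peak can be solved from its fold and its −log10 p. The 528 summits had a median of 62 reads (lowest 35, highest 125), against 166 for the peaks with a parental peak. The local background ran from 14.2 to 38.5 reads, and 98 of the 528 summits stood on the library-wide value of 14.2 (18.6%, 15.3 to 22.1). Among the 709 ROSA26 peaks near a gene end with a parental peak and a fold of at most 5.91, 85 did (12%, 9.69 to 14.6).

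The 15 peaks of highest fold, from 5.15 to 5.91, are named here with their genes. HIBCH, a mitochondrial enzyme of valine breakdown, had a fold of 5.91 and 89 reads at its summit, 85 bp before its start (peak on chromosome 2, 190319631 to 190320135). A peak with the same fold and reads lay on chromosome 6 from 159761581 to 159762111. Its summit was 206 bp outside the nearer end of the span of ACAT2, a thiolase that joins acetyl-CoA units, whose strand was not known here. It was also 442 bp inside the start of SOD2, the superoxide dismutase of mitochondria. The peak of NAA10, the catalytic subunit of an enzyme that acetylates protein N-termini, had a fold of 5.72 and 86 reads (chromosome X, 153934722 to 153935270), and its summit was 229 bp from the end of RENBP. The next peak on the X chromosome, with a fold of 5.59, lay 21 bp before the start of KRABD4, whose core motif is shown above.

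The same group of 15 strongest peaks held 2 genes with near-identical copies elsewhere in the genome. GTF2H2C, a copy of a gene for a subunit of the transcription factor TFIIH, had a fold of 5.65 and 85 reads, and POLR2J3, a copy of a gene for a subunit of RNA polymerase II, a fold of 5.39 and 81 reads. How reads were divided between copies is not given in the sources used here, so the placement of these 2 peaks is uncertain. POLR2J itself, of the same family and so with the same uncertainty, had another of the 528 peaks, with a fold of 4.27 and its summit 32 bp inside its span.

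Among the remaining 9 peaks, SOS1, which activates RAS proteins, had the most reads (125, fold 5.48), with the summit 439 bp inside the gene. PSMB5, a catalytic subunit of the proteasome, had a fold of 5.32 and XPOT, which exports tRNA from the nucleus, one of 5.25 (summit 124 bp before the start). The folds were 5.61 at PPP1R27 and MCRIP1, which shared a peak, 5.52 at FAM168B, 5.26 at IL11RA, the receptor of interleukin 11, and 5.17 at USP34, a deubiquitinase. BTBD1 and PNISR closed the 15 with 5.16 and 5.15. Of these 15 peaks, the nearest parental peak was 6088 bp away at NAA10 and 785122 bp away at KRABD4. The weakest 3 of the 528 were at PIGU, which acts in GPI anchor attachment (fold 1.94, 63 reads on a background of 32.1), at CEP135, a centriole protein (1.97), and at MRM1 and DHRS11 (1.99).

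The rule has 2 limits, the distance to a gene end and the overlap with other lists. The 3 summits nearest to 1 kb from inside were those of TESK1 (998 bp, fold 3.02), RFX7 (994 bp, 2.96) and SLC29A2 (989 bp, 3.21). The 3 nearest from outside lay 1049 bp from NIPSNAP3B (fold 2.98), 1053 bp from DNAJA2 (3.13) and 1077 bp from CDK5R2 (3.89). The gap to a parental peak was below 1 kb for 13 of the 528 and below 10 kb for 50 (9.47%, 7.11 to 12.3). The closest were 255 bp away at GCC2, a protein of the Golgi (fold 2.90), and 277 bp away at ZNF787 (3.10). On the other side of the limit, the peak shared least, at KIF5C, still covered 66.1% of the shorter of the overlapping pair.

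Genes at these peaks could still have another peak in the other libraries. Over all 19974 protein-coding genes, 15.5% had a parental summit within 1 kb of an end, and the rule takes only peaks that no other list overlaps, so a low count is largely fixed by it. Of the 650 genes, 621 had neither a parental nor a B1 knockout summit within 1 kb of an end (95.5%, 93.7 to 97.0), 27 had a parental one and 17 a B1 knockout one, given as a description. MCM7, a subunit of the replicative helicase, is one of those with both, and its ROSA26-only peak (fold 4.20) lay 604 bp from the parental peak. ELK4, an ETS factor, had a B1 knockout peak near an end and no parental one, and its ROSA26-only peak (fold 2.84, 72 reads) lay 336 bp from the B1 knockout peak. No gene had more than 1 of the 528 peaks.

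Near a gene end meant near a gene start. The strand was known for the nearest gene of 431 of the 528 peaks, from the RefSeq promoter table, and 420 of these lay at the start (97.4%, 95.5 to 98.7). For the 709 peaks with a parental peak in the same range of fold the share was 98.2% (594 of 605, 96.8 to 99.1). The 11 others lay nearest to the 3′ end of a gene. The strongest was that at PPP1R27, which lies 197 bp before the start of MCRIP1. The other 10 had no start of the table within 1 kb, and the strongest of them were at ADAM8, a membrane protease (fold 3.89), ZFP36, which destabilises mRNA (3.66), and VGF (3.49), named after their values were seen.

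Taken over all folds together, summits of the group were spread more widely about the start. A start of the table lay within 1 kb of 418 of the 528 summits, at a median absolute distance of 79.5 bp. For the peaks with a parental peak it was 62 bp in the same range of fold (593 peaks) and 47 bp over all folds (2045 peaks). The share of summits within 50 bp of a start was 36.4% (31.7 to 41.2), against 43.2% (39.1 to 47.3) in the same range of fold and 44.8% when these were weighted to the 5 bins of fold of the 528. In the strongest bin it was 41.3% against 43.1% (457 peaks with a parental peak), and in the next 43.3% against 40.5% (74). From the weakest bin up, the others had 28.4%, 39.0% and 30.1%. Peaks with a parental peak there had 44.4%, 52.6% and 44.0%, on only 18, 19 and 25 peaks. A summit inside a promoter window was found for 73.4% (68.9 to 77.6), 81.8% (78.4 to 84.8) and, weighted, 77.8%. The summit lay before the start in 71.5% of the 418 and in 76.2% of the 593.

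**Figure D2:**
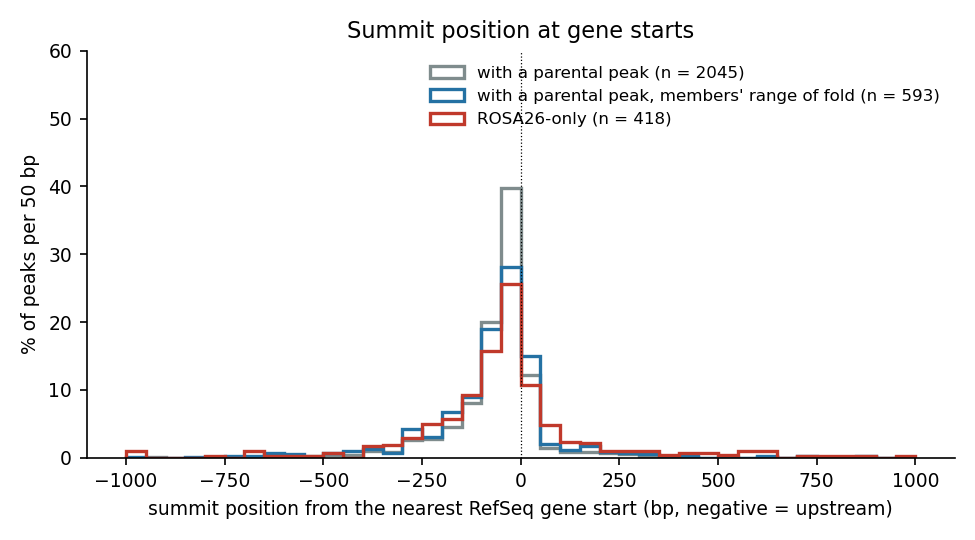
Position of the summit relative to the nearest RefSeq gene start in bp (x axis, negative before the start) against the share of peaks per 50 bp (y axis), for ROSA26-only peaks and for ROSA26 peaks with a parental peak. All 3 lines peak just before the start, and the ROSA26-only line is the lowest there, with 36.4% of summits within 50 bp of a start.

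Of the 528 peaks, 118 lay near ends of 2 or more genes (22.3%, 18.9 to 26.1). This share was 22.8% (19.8 to 26.1) among the 709 peaks with a parental peak in the same range of fold and 27.5% (25.7 to 29.3) over all 2410. Where both strands were known, the first 2 genes pointed away from each other at 70 peaks and lay otherwise at 23. The 5 strongest of these peaks were those of ACAT2 with SOD2, NAA10 with RENBP, PPP1R27 with MCRIP1, ZNF593 with ZNF593OS and C1orf232 (fold 4.97) and SCAF1 with RRAS (4.72). SCAF1 belongs to proteins that bind RNA polymerase II, and RRAS is a small GTPase. At such peaks the signal cannot be assigned to one gene.

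The ETS motif was found at these starts more often than at promoters in general and less often than at the stronger peaks. CCGGAAGT on either strand was in a promoter window in reach of 49 of 418 summits (11.7%, 8.80 to 15.2), and in 1183 of all 22132 windows of protein-coding genes (5.35%, 5.05 to 5.65). Among peaks with a parental peak it was found for 716 of 2045 (35.0%, 32.9 to 37.1), and in the same range of fold for 113 of 593 (19.1%, 16.0 to 22.5). Weighted to the 5 bins of fold of the ROSA26-only peaks, the last share was 11.8%. That weighted share lies inside the interval of the ROSA26-only peaks but has no interval of its own. In the weaker bins it rests on few peaks with a parental peak, with the motif in 0 of 18, 3 of 19 and 3 of 25. The other weighted shares given for promoter windows and starts rest on the same small bins. A summit can reach several windows, and with the nearest window alone the shares were 11% and 18.4%.

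Within the group the share with the motif was higher at higher fold. In the weakest of the 5 bins, with folds of 1.94 to 2.74, 4 of 88 had it (4.55%, 1.25 to 11.2), and in the strongest, with folds of 3.85 to 5.91, 17 of 80 did (21.3%, 12.9 to 31.8). In the strongest bin 99 of 457 peaks with a parental peak had it (21.7%, 18.0 to 25.7). In the weakest bin it was 0 of 18, where the interval reaches up to 18.5%.

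The shorter core CGGAAG was in reach of 243 of the 418 summits (58.1%, 53.2 to 62.9), of 67.3% (63.3 to 71.1) of those with a parental peak in the same range of fold, and of 62.1% when weighted. All windows held it in 23.7% (23.2 to 24.3). A window with more than 1 such core was in reach of 64 summits (15.3%, 12 to 19.1), against 22.3% (19.0 to 25.8) in the same range of fold and 6.42% of all windows. Where a summit lay in a window with CCGGAAGT, the median distance between them was 21 bp (39 peaks), and 16 bp for those with a parental peak (107 peaks). With CGGAAG the distances were 25 bp (199 peaks) and 18 bp (357 peaks). A match is a string of letters and not a shown site.

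**Figure D3:**
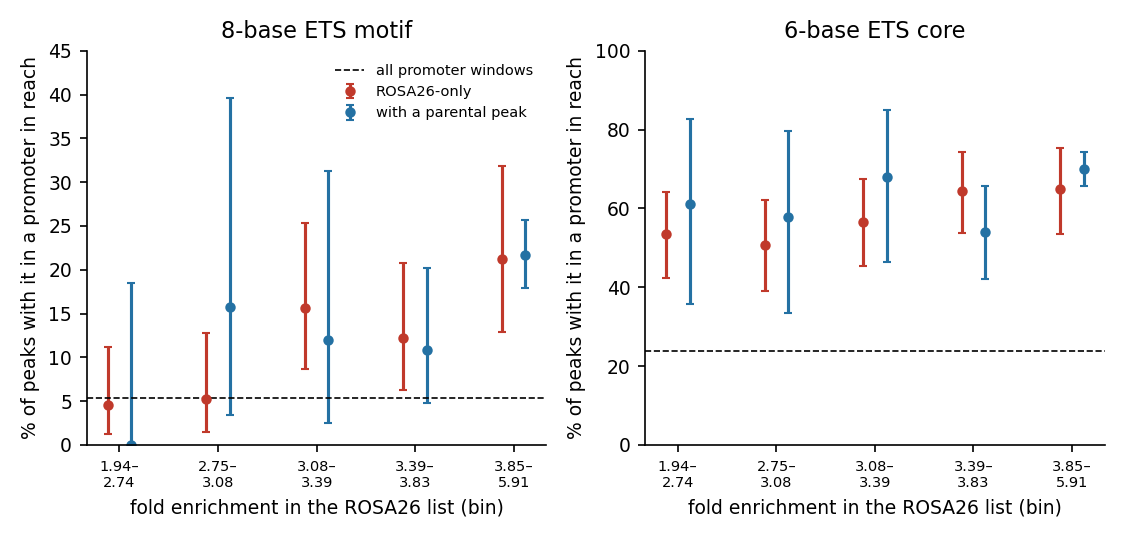
Share of peaks with the 8-base motif CCGGAAGT (left) or the 6-base core CGGAAG (right) in a promoter window in reach (y axes) by bin of ROSA26 fold (x axes), with exact 95% intervals, for ROSA26-only peaks and for ROSA26 peaks with a parental peak. The dashed lines are the shares of all promoter windows, 5.35% and 23.7%; the intervals of both groups overlap in each bin.

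Base composition was measured in the same windows. The nearest window had a median GC content of 65.3% for the 418 peaks, 64.0% for the 593 with a parental peak in the same range of fold and 62.3% over all windows. The ratio of observed to expected CpG was 0.876, 0.882 and 0.738 in the same order.

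The peaks were spread over all 23 chromosomes, unevenly. Chromosomes X and 14 had the largest shares of ROSA26-only peaks among ROSA26 peaks near a gene end, 25 of 80 (31.3%, 21.3 to 42.6) and 29 of 94 (30.9%, 21.7 to 41.2), and their intervals lay above the 18.0% of all chromosomes. These chromosomes are named after the shares of all 23 were seen. Chromosome 3 had 8 of 147 (5.44%, 2.38 to 10.4) and chromosome 20 had 9 of 94 (9.57%, 4.47 to 17.4), with intervals below it. The whole lists, from which the ROSA26-only peaks are taken, are no separate check of this order. They held 71 parental and 106 ROSA26 peaks on chromosome X, and 77 and 110 on chromosome 14. The counts were 174 and 182 on chromosome 3, and 110 and 134 on chromosome 20. The local background differed between chromosomes too. Its median at ROSA26 peaks near a gene end was 14.2 reads on chromosomes X and 14, 14.7 on chromosome 3 and 24.7 on chromosome 20. The value of 14.2 is the library-wide lower limit. It was reached by 61.3% of these peaks on chromosome X, 52.1% on 14, 47.6% on 3 and 0% on 20. Medians at or near this limit therefore do not measure the depth of a chromosome. The part of the background in the shares was not tested. The order also changed with strength. Among ROSA26-only peaks and peaks with a parental peak near a gene end, with a fold of at most 5.91, the ROSA26-only share was 64.4% on chromosome 14, and that of chromosome X, 54.3%, was below those of chromosomes 7 (56.6%), 22 (56.3%) and 15 (54.5%). It was 16% on chromosome 3 and 23.1% on chromosome 20, the lowest of the 23. The median fold of all ROSA26 peaks near a gene end was 5.32 on chromosome X, 6.17 on 14, 7.53 on 3 and 7.94 on 20.

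**Figure D4:**
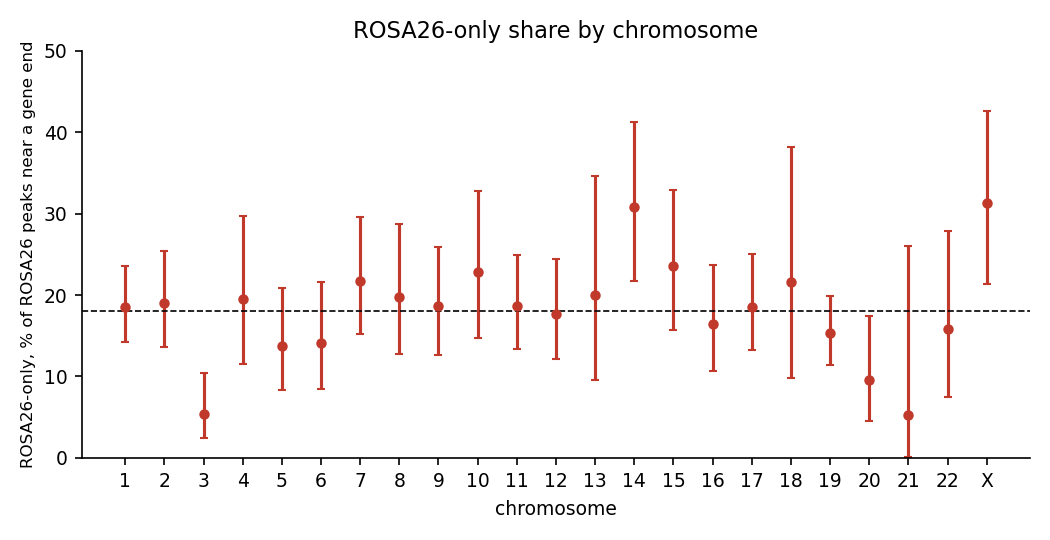
ROSA26-only peaks as a share of ROSA26 peaks near a gene end (y axis) by chromosome (x axis), with exact 95% intervals and the share of 18.0% over all chromosomes as a dashed line. Chromosomes X (31.3%) and 14 (30.9%) stand above the line and chromosomes 3 (5.44%) and 20 (9.57%) below it.

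By gene function, 31 lists of genes were counted, of which 27 held at least 1 gene with a ROSA26-only peak. The background for each is 3.25% of all protein-coding genes, which does not allow for how often genes had any ROSA26 peak. Such a peak lay near an end of 18.5% of all protein-coding genes. Among lists, 59 of 84 cytosolic ribosomal proteins, 241 of 563 zinc finger symbols and 26 of 59 DNA replication genes had one. For genes restricted to other organs it was 0 of 29. A share above 3.25% is thus not by itself particular to ROSA26-only peaks. Of all 3693 genes with a ROSA26 peak near an end, 650 had a ROSA26-only one. Among such genes it was 8 of 59 for ribosomal proteins and 30 of 241 for zinc finger symbols, both lower shares. For DNA replication it was 10 of 26, a higher share. These differences were not tested. Several lists are drawn up from symbol patterns and so include paralogs and genes of other functions with similar symbols. A gene is counted wherever a summit lies within 1 kb of its end, also where another gene is nearer. Genes of DNA replication were the list with the highest share, 10 of 59 (16.9%, 8.44 to 29.0), and 17 of the 59 had a parental peak. TIPIN, which protects stalled forks, had a fold of 4.31 and 106 reads with its summit 50 bp before the start of TIPIN (shared with MAP2K1, a MAP kinase kinase). MCM7 (4.20) and MCM5 (4.14) are subunits of the replicative helicase. CLSPN (3.58), LIG1 (3.28), RFC3 (3.16), RNASEH2C (2.91), WDHD1 (2.89), GINS3 (2.75) and DBF4 (2.25) completed the 10. GINS3 is the 1 of them with CCGGAAGT in reach.

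Of 92 DNA repair genes 10 had such a peak (10.9%, 5.34 to 19.1), and 37 had a parental peak. The strongest were FANCB, of the Fanconi anaemia core complex (4.14, summit 314 bp from FANCB and 38 bp from MOSPD2), PMS1, of mismatch repair (3.86, summit 853 bp from PMS1 and 742 bp from ORMDL1), and RAD18, a ubiquitin ligase of lesion bypass (3.75, with CCGGAAGT in reach). RAD50 (3.57, also with CCGGAAGT in reach), MSH3 (3.35), RAD51C (3.20), BLM (2.86), BRCA1 (2.70) and RAD51D (2.67) were among the others. RAD50, RAD51C, RAD51D, BLM and BRCA1 act in repair by homologous recombination. The summit of the BRCA1 peak also lay 21 bp from the nearer end of the span of NBR1, an autophagy receptor. None of 64 genes of the cell cycle and the anaphase-promoting complex had one, where the interval reaches up to 5.60%. Of these 64, 15 had a ROSA26 peak and 15 a parental one.

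Genes of protein synthesis formed the next lists. Of 84 genes with symbols of cytosolic ribosomal proteins 8 had a ROSA26-only peak (9.52%, 4.20 to 17.9), and 53 had a parental peak. RPL7L1 (4.14), which is a paralog and has a parental peak elsewhere, RPS12 (3.83) and RPL39 and RPLP0 (3.35 each) were the strongest. The summit assigned to RPL7L1 lay 851 bp from it and 70 bp from PEX39. Of 72 genes listed for translation initiation, elongation and termination 6 had one (8.33%, 3.12 to 17.3), with EIF5 (4.07), the helicase EIF4A2 (3.67) and EIF4B (3.29) leading. The 6 include the kinases EIF2AK4 (3.11) and EIF2AK3 (2.81), which are not themselves translation factors. Of 39 aminoacyl-tRNA synthetases 4 had one (10.3%, 2.87 to 24.2), at SARS2 (3.26), GARS1 (2.97), TARS1 (2.57) and YARS2 (2.36). The peak of SARS2 was shared with MRPS12, so that a mitochondrial synthetase and a mitochondrial ribosomal protein had 1 summit between them.

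Lists of RNA processing and transcription followed. Of 85 genes that modify tRNA or rRNA or build ribosomes 7 had a peak (8.24%, 3.38 to 16.2), led by PUS3 (3.76, shared with DDX25), TRMT61A (3.75), which methylates tRNA, and UTP18 (3.69). Of 53 DEAD and DEAH box helicases 6 had one (11.3%, 4.27 to 23), led by DDX25 (3.76), the spliceosomal DDX23 (3.63) and DDX20 (3.16). Of 82 spliceosome genes 3 did (3.66%, 0.761 to 10.3), CWC27 (3.67), SNRPA (3.32) and LSM5 (3.11). This share is close to that of all protein-coding genes, although 51 of the 82 had a ROSA26 peak of any kind. Of 147 genes of RNA polymerases, general factors, Mediator and related complexes 11 did (7.48%, 3.79 to 13.0), with POLR2J (4.27), POLR2D (3.92), MED4 (3.64) and TAF5L (3.63) next after GTF2H2C and POLR2J3.

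The mitochondrial lists had shares from 3.64% to 6.52%, with intervals that include the background. Of 77 mitochondrial ribosomal proteins 5 had one (6.49%, 2.14 to 14.5), against 35 with a parental peak. MRPS16 (3.83) had its summit on its start, and MRPL17 (3.68) and MRPS12 (3.26) followed. Of 46 genes of mitochondrial DNA expression 3 had one (6.52%, 1.37 to 17.9). At TFAM the fold was 3.68 with 55 reads, and its summit lay 17 bp before the start whose sequence is shown above. POLG2 (3.39), a subunit of the mitochondrial DNA polymerase, and HSD17B10 (3.24), of mitochondrial RNase P, were the others. Of 110 genes of the respiratory chain and ATP synthase 4 had one (3.64%, 1.00 to 9.05), against 45 with a parental peak. They were ATP5F1B, the catalytic subunit of ATP synthase (3.92, 125 reads), COX7B2 (3.42), ATP5MJ (3.35) and NDUFV1 (2.66). Import genes had 2 of 41, TIMM9 (3.81) and OXA1L (3.42), and carriers 2 of 48, SLC25A25 (2.70, shared with NAIF1) and SLC25A40 (2.25). The peak of SLC25A40 is the one also counted for DBF4, with the summit 211 bp from SLC25A40 and 78 bp from DBF4.

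Trafficking and protein turnover genes had shares from 1.33% to 6.35%. Of 197 genes of coats, tethers and endosomal sorting 12 had a peak (6.09%, 3.19 to 10.4), led by TRAPPC8 (4.60), COG1 (4.08) and STX12 (3.97). Of 63 genes of GPI anchors and N-glycans 4 did, led by PIGB (3.95), ALG5 (3.27) and PIGH (2.62), and of 54 nuclear pore and transport genes 3 did, NUP88 (4.15), XPO6 (3.36) and NUP50 (2.56). Of 241 genes with symbols of the centrosome and cilium list 8 did, led by TTC7A (3.85), CEP57 (3.14) and BBS1 (3.02). Membership by symbol, as for TTC7A, does not show a role at the centrosome or cilium. Of 36 autophagy genes ATG13 (2.87) and NBR1 (2.70) did. Of 63 ubiquitin and COP9 genes COPS8 (4.60) and UBE2Q1 (4.11) did, of 50 USP genes USP34 and USP48 (2.67), of 50 proteasome genes PSMB5 alone, and of 75 chaperones DNAJB14 (3.48).

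Zinc finger symbols made up the largest number, 30 of 563 genes (5.33%, 3.62 to 7.52), against 215 with a parental peak. ZNF593 and its overlapping neighbour ZNF593OS shared the strongest peak (4.97), and ZKSCAN2 and ZNF70 followed with 4.21 each. Of 86 histone modifiers 3 had a peak, BRD8 (4.53, shared with KIF20A), PRMT6 (3.07) and SETD1A (2.67). Of 29 ETS genes only ELK4 did.

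Markers of cell types were checked last. Of 21 genes of the melanocyte lineage RAB27A, which moves pigment granules, had one (fold 3.95, 69 reads), and none had a parental peak. Its summit, 33 bp before the start of RAB27A, was also 33 bp from PIGBOS1 and 66 bp from PIGB, so the peak is not RAB27A's alone. None of 26 markers of other skin cell types and 29 genes restricted to other organs had one, with intervals reaching up to 13.2% and 11.9%. A ROSA26 peak of any kind lay near 1 of the 26 and 0 of the 29. Telomere and telomerase genes, which are not cell type markers, had none in 24 either, with an interval up to 14.2%. Of these 24, however, 15 had a ROSA26 peak and 15 a parental one, so the 0 does not mean that they lacked GABPA peaks.

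**Figure D5:**
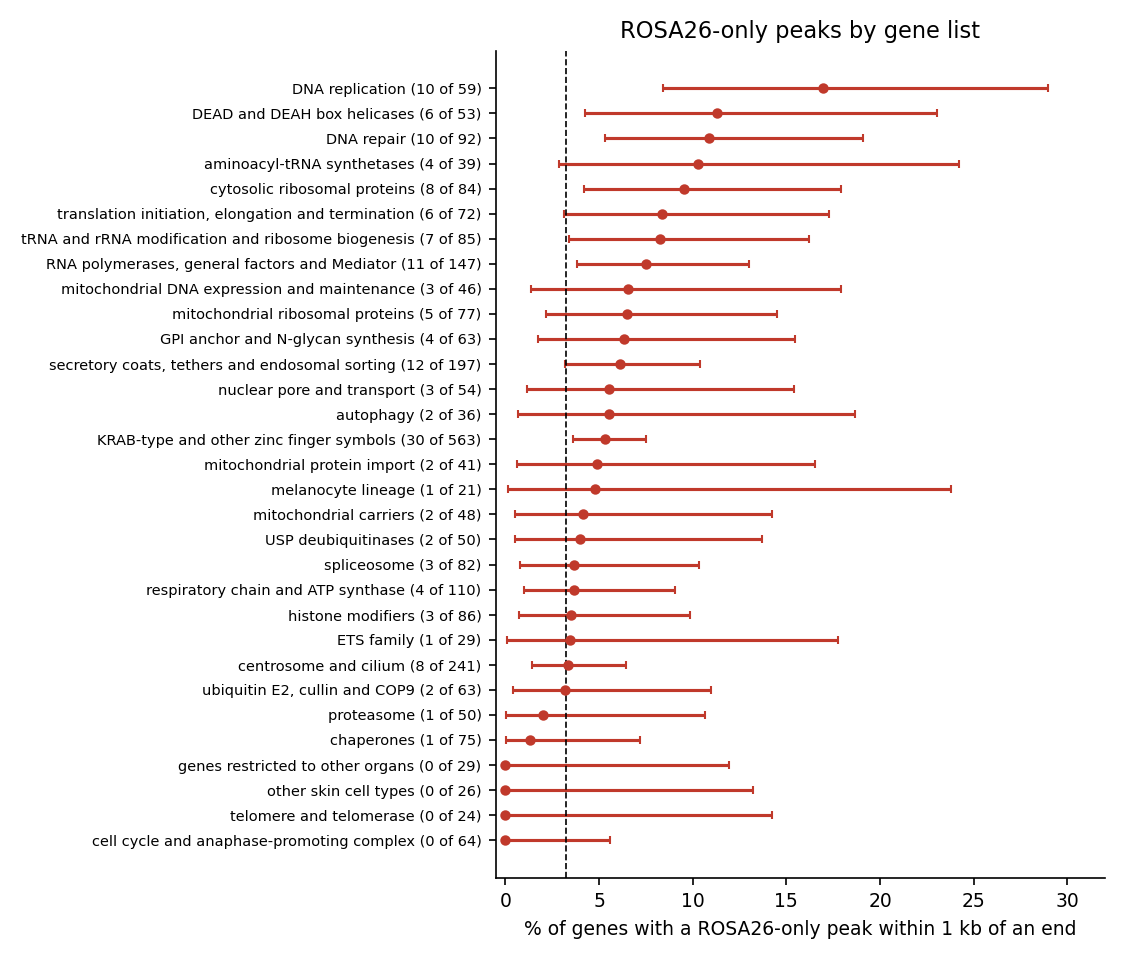
Share of genes with a ROSA26-only peak within 1 kb of an end (x axis) for 31 gene lists (y axis, with counts), with exact 95% intervals and the share of all protein-coding genes, 3.25%, as a dashed line. DNA replication (16.9%) has the highest share and 4 lists have none.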

How the data were processed

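GABPA ChIP-seq was deposited as 1 peak list for each of 3 libraries of A-375 cells (parental, ROSA26 knockout, B1 knockout with TERT knock-in). The 3 input libraries were not analysed here on their own. Reads were processed with Bowtie2, SAMtools and MACS2 on hg38, per the submitters' processing notes. Not given in the sources used here: versions, thresholds and whether the input was used. The deposited lists give each peak's fold enrichment, a ratio to local background, the −log10 of its p and q, and a score that is 10 times the −log10 q with decimals dropped. Folds were compared within the ROSA26 list. Counts of parental and B1 knockout peaks up to a given fold are side by side values, since the fold has no common scale across lists.

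Peaks were compared with Python 3.11.15, pandas 2.3.3 and SciPy 1.17.1. Gene spans, strands and promoter windows came from RefSeq tables of GRCh38.p14, which has the chromosome coordinates of hg38. The promoter table covered 15812 of 19974 genes and none on chromosome 8, where 21 of the 528 peaks lay, so these have no value for strand or motif. Reads at a summit were recovered by solving MACS2's expressions for its fold and p together, to within 0.01 in −log10 p. This recovered all of 500 simulated peaks and gave a value for all 3857 ROSA26 peaks, of which 3855 had a single one. The lists hold no read totals. Conditions were not tested against each other, since each has 1 library. Shares have exact 95% intervals.

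The members, the gene lists and the motifs were chosen with earlier results of these data known. The genes named are the 15 peaks of highest fold, the 5 highest near several genes, up to 3 per list, the 3 nearest each limit and the 3 weakest, and others are named as the rest of a short count. Some genes under this rule are not reported here. Alternatives were the overlap (a gap of up to 500 bp, or 50% of the shorter peak), the distance (500 bp or 2 kb), the peak threshold, list length, the nearest gene only and the motif.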

Additional observations from a re-analysis of the deposited data

How the results depend on the processing

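The number of ROSA26-only peaks near a gene end was 528 and fell to 348 when only ROSA26 peaks with a −log10 q of at least 10 were used, and to 145 with as many of the strongest ROSA26 peaks as the parental list holds. These settings take fewer peaks by construction. The share of ROSA26-only peaks near a gene end, 59.6%, was then 68.4% and 71.4%, and it was 53.2% within 500 bp and 63.5% within 2 kb. The median fold rose from 3.23 to 4.05 in the list of equal length. The share near ends of several genes, 22.3%, was 15.5% within 500 bp, 27.7% within 2 kb and 0 by construction with the nearest gene only. The share with the ETS motif, 11.7%, was 15.5% with the stricter threshold, 19.0% at equal length, 58.1% with the 6-base core and 7.42% with the 9-base CCGGAAGTG. The other settings moved the shares by less than their intervals and the count by less than 1.5 times. The median fold, which has no interval here, was 3.55 with the stricter threshold and between 3.21 and 3.26 in the remaining settings. The share at gene starts stayed between 96.1% and 98.7% in every setting tried. The nearest window alone was chosen after seeing the data and gave 11% for the motif. No paired analysis was possible because each condition has 1 library. The fewest reads at a summit of the 528 were 35, and the lists hold no read totals, so the depth of the 3 libraries was not compared.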

Other observations

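Other promoter strings, picked after the ETS counts were seen, were searched on both strands in the windows in reach of the 418 summits. The GC box GGGCGG was found for 79.7% (75.5 to 83.4) of the ROSA26-only peaks, 74.7% (71.0 to 78.2) of those with a parental peak in the same range of fold and 56.3% of all windows. The CCAAT box bound by NF-Y was found for 46.2%, 46.4% and 34.6%, the E-box CACGTG for 13.2%, 15% and 8.34%, and the cyclic AMP element TGACGTCA for 3.83%, 3.71% and 2.26%, in the same order. A peak can reach several windows, which raises its shares over those of single windows.

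Near a gene end, 3 ROSA26 peaks had a B1 knockout peak and no parental one, and so are not among the 528. Of the 886 ROSA26-only peaks 13 lay off chromosomes 1 to 22 and X. Of the 528 summits 209 lay inside a gene span (39.6%, 35.4 to 43.9).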
